A study of Mus musculus with 20 samples.

Results

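Gene expression in cells labelled as re-expressing wild-type Fh1 (Rec) was compared with that in the Fh1 deletion clone clone19. The comparison used 10 of the 20 RNA sequencing libraries of a study of immortalised kidney epithelial cells from C57BL/6J mice. Rec and clone19 contributed 5 libraries each, chosen by their sample titles. The other 10 libraries came from clone1, a further Fh1 deletion clone, and from Fh1_fl_fl cells, labelled Fh1 wild type, with 5 libraries each. Cells of all 4 groups were cultured alike, in DMEM with serum and added uridine. Each deletion group is 1 clone, and the labels name neither the clone from which the Rec cells were made nor the part of Fh1 that was deleted. What restored Fh1 does to clone19, and what separates the Rec line from clone19 for any other reason, therefore cannot be told apart here. Whether the 5 libraries of each group were grown as separate cultures is not stated, so the p-values reflect library-to-library spread that may be technical only.

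Fh1 encodes fumarate hydratase, the tricarboxylic acid (TCA) cycle enzyme that turns fumarate into malate, and cells without it accumulate fumarate. Fumarate is known to inhibit dioxygenases that use oxoglutarate, among them the prolyl hydroxylases that mark hypoxia-inducible factors (HIF) for degradation, and to modify KEAP1, the protein that otherwise holds the antioxidant factor NRF2 in check. In humans, inherited loss of fumarate hydratase predisposes to an aggressive kidney cancer, and its loss in kidney cells has been linked to epithelial-to-mesenchymal transition (EMT), in which epithelial cells lose junctions and keratins and gain vimentin and matrix genes.

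The gene counts summed to 8672778 to 17826881 per library in Rec (median 10805443) and to 5988447 to 10095536 in clone19 (median 8803646). Levels are CPM, the count relative to a scaled library size, and averages are means ± SD over 5 libraries. In a principal component analysis of these 10 libraries the first component held 85.4% of the variance and the second 3.4%. In clone19 replicate 3 a single locus, Gm42418, which overlaps ribosomal RNA sequence, took 8.2021% of the counts, against 0.2406 to 0.3932% in the Rec libraries. All 10 markers of kidney epithelium were counted in both groups, and their summed level was 3750 to 4100 CPM in Rec and 1760 to 2010 CPM in clone19. The largest differences within that sum were in Krt8 and Krt18, at 958 and 1160 CPM in Rec, against 242 and 386 CPM in clone19. Pax8 was lower in Rec, at 184 CPM against 232 CPM in clone19, and Emx2 had 41.6 and 41.5 CPM. Of 20 genes listed as proximal tubule markers, 11 had no count in any Rec library and 9 had none in any clone19 library. The phosphate transporter Slc34a1 was among them in both, as was Umod, which marks the thick ascending limb rather than the proximal tubule. The summed level of the 20 was 42.9 to 56.5 CPM in Rec and 95.3 to 154 CPM in clone19. The endocytic receptor genes Lrp2 and Cubn averaged 12.6 and 33.2 CPM in Rec, against 80.1 and 19.5 CPM in clone19, and the water channel gene Aqp1 averaged 3.79 CPM in Rec and 18.8 CPM in clone19. Of 14 fibroblast, smooth muscle and pericyte markers, 10 were counted in each group. Their summed level was 1.8 to 2.75 CPM in Rec and 14.2 to 19.6 CPM in clone19, and Pdgfrb, Lum and Thy1 were at 0 in both.

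The transcript of Fh1 (gene ENSMUSG00000026526, on the minus strand of GRCm38 chromosome 1 from 175600374 to 175625635) had 63.8, 76.3, 80.7, 69.1 and 66.3 CPM in the Rec libraries, against 81.9, 91.5, 86.0, 90.4 and 73.5 CPM in the clone19 libraries. The ranges overlapped, and the Rec mean was the lower of the 2. The log2 fold change of Rec over clone19 was -0.25 (SE 0.07, edgeR adjusted p = 0.00321). Mean levels were 112 ± 5.93 CPM in clone1 and 92.3 ± 6.16 CPM in Fh1_fl_fl. A count over the whole gene includes exons outside any deleted part and cannot separate a construct from the native gene, so it checks neither the deletion nor the re-expression. Rec and clone19 below mean the libraries labelled so, and every direction rests on those labels.

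Of 12671 genes tested, 9355 (73.8%) differed between Rec and clone19 at an adjusted p under 0.05, with 4540 (35.8%) higher and 4815 (38.0%) lower in Rec. The groups did not overlap for 7292 genes (57.5%), with all Rec libraries above all clone19 libraries for 3530 (27.9%) and below them for 3762 (29.7%). With changes this widespread, a share of a gene list is read against these percentages. A change beyond 2-fold was called for 1960 genes (15.5%), with 648 (5.11%) higher and 1312 (10.4%) lower in Rec. Without clone19 replicate 3, 9207 genes were called and 1937 beyond 2-fold.

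Decreases beyond 2-fold outnumbered increases at every level, and most in proportion among weakly expressed genes. Where the higher of the 2 group means was at least 100 CPM, 134 genes were over 2-fold higher and 152 over 2-fold lower in Rec. The numbers were 294 higher and 479 lower where it lay between 10 and 100 CPM, 200 higher and 601 lower between 1 and 10 CPM, and 20 higher and 80 lower below 1 CPM. Genes counted at 1 CPM or more in one group but with no count over all 5 libraries of the other numbered 69 with no count in Rec and 5 with no count in clone19. Rec was the more deeply sequenced group, and a gene with no count could still hold up to 3 counts over the group, which is 0.0509 CPM in Rec and 0.0743 CPM in clone19. Intervals and limits of this kind cover counting error only.

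Targets of the hypoxia-inducible factors were lower in Rec almost throughout. Of 38 tested members of the HIF list, 34 fell and 2 rose, and 26 of the decreases and 1 of the increases exceeded 2-fold. The median log2 fold change was -1.43, against -0.02 over all tested genes. The list covers angiogenic and secreted factors, glucose uptake and glycolysis, mitochondrial clearance, and the oxygen-sensing enzymes themselves. Fewer responding cells and less RNA per cell cannot be told apart in these bulk libraries, here and in every list below.

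Vegfa (chromosome 17, 46016993 to 46032369, minus strand), the main angiogenic growth factor, had 109, 103, 109, 120 and 122 CPM in Rec, against 331, 327, 349, 332 and 348 CPM in clone19. No Rec library came near the lowest clone19 library, and the log2 fold change was -1.58 (SE 0.06, edgeR adjusted p = 2.52e-18). Ero1l (chromosome 14, 45283087 to 45318771, minus strand), which drives the formation of disulphide bonds in the endoplasmic reticulum, had 102, 86.5, 89.7, 95.1 and 101 CPM in Rec, against 784, 891, 780, 747 and 731 CPM in clone19. This was a log2 fold change of -3.05 (SE 0.07, edgeR adjusted p = 2.34e-22), with the 5 values of each group close together. Bnip3 (chromosome 7, 138890836 to 138909519, minus strand), a mitophagy receptor, had 46.8, 59.5, 66.9, 66.0 and 68.3 CPM in Rec, against 276, 408, 314, 313 and 244 CPM in clone19. The clone19 values spread more widely than those of Rec but did not overlap them (log2 fold change -2.34, SE 0.12, edgeR adjusted p = 2.11e-15).

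Pdk1, the kinase that closes pyruvate dehydrogenase to pyruvate, averaged 51.8 ± 4.72 CPM in Rec and 244 ± 13.9 CPM in clone19. The glucose transporter Slc2a1 averaged 86.1 ± 5.93 CPM in Rec and 232 ± 22.6 CPM in clone19. Stc2, a secreted glycoprotein, had no count in any Rec library, against 27.2 ± 3.55 CPM in clone19, which makes it at least 534-fold lower in Rec when 3 counts over the whole Rec group are taken as the limit. The list median is the same with Stc2 at that limit, since its rank does not change. Ddit4, an inhibitor of mTOR that hypoxia also induces, went the other way, at 180 ± 19.8 CPM in Rec and 84.9 ± 4.11 CPM in clone19 (log2 fold change 1.08, SE 0.07, edgeR adjusted p = 9.63e-14). Angptl4, a secreted inhibitor of lipoprotein lipase named after its values were seen, also rose, to 24.8 ± 2.73 CPM in Rec, against 7.94 ± 0.996 CPM in clone19 (log2 fold change 1.63, SE 0.11, edgeR adjusted p = 7.48e-13). Car9, the carbonic anhydrase often used as a marker of HIF activity, was too weakly counted to test, with 19 counts over the Rec libraries and 1 count over the clone19 libraries. The ratio of its CPM in Rec to that in clone19 was 13, with an exact 95% counting interval of 2.07 to 541.

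Glycolytic enzymes fell with the HIF targets, some of them shared between the lists. Of 19 tested members, 17 fell and 1 rose, with 8 decreases beyond 2-fold and a median log2 fold change of -0.97. Pfkp (chromosome 13, 6579768 to 6648777, minus strand), the platelet-type phosphofructokinase, had 13.4, 14.1, 17.2, 17.2 and 17.8 CPM in Rec, against 156, 135, 141, 144 and 147 CPM in clone19. The log2 fold change of -3.17 (SE 0.08, edgeR adjusted p = 1.65e-22) stood beside one of -0.72 for Pfkl, the liver-type enzyme (SE 0.07, edgeR adjusted p = 1.32e-09). Pfkl averaged 176 ± 6.82 CPM in Rec and 291 ± 39.2 CPM in clone19.

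Aldoa, a fructose bisphosphate aldolase, averaged 630 ± 34.3 CPM in Rec and 2480 ± 155 CPM in clone19. Ldha, the lactate dehydrogenase subunit that favours lactate formation, averaged 1080 ± 58.1 CPM in Rec and 2160 ± 80.7 CPM in clone19, and Ldhb, the other subunit, 17.7 ± 1.45 CPM in Rec and 100 ± 7.65 CPM in clone19. Pkm, pyruvate kinase, fell by less, at 3220 ± 110 CPM in Rec and 4180 ± 297 CPM in clone19 (log2 fold change -0.38, SE 0.06, edgeR adjusted p = 2.04e-06). Slc16a1, a lactate transporter, was the 1 member that rose, at 219 ± 13.7 CPM in Rec and 189 ± 13.7 CPM in clone19 (log2 fold change 0.21, SE 0.09, edgeR adjusted p = 0.0409), and its groups overlapped. The call on the Slc16a1 log2 fold change was lost without clone19 replicate 3 (edgeR adjusted p = 0.0806) and without several other single libraries. Genes such as Aldoa, Ldha, Pgk1, Gapdh and Eef1a1 have many processed copies, and reads that align to more than 1 place entered no gene, so their levels are uncertain.

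**Figure D1:**
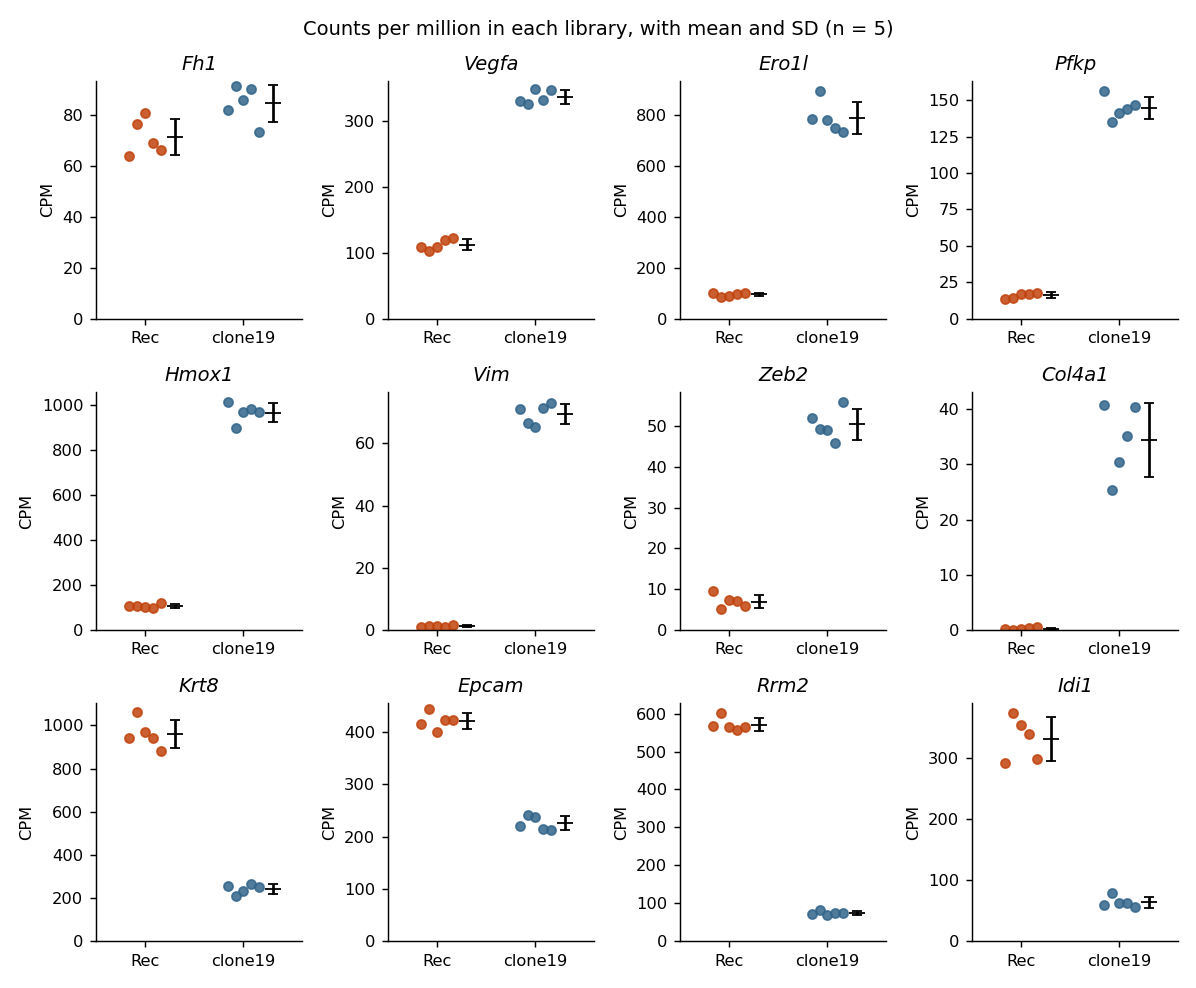
Level of 12 genes in CPM (vertical axes, each starting at 0) in the 5 Rec libraries (left, orange) and the 5 clone19 libraries (right, blue), each point 1 library, with the mean and SD beside the points. Fh1 overlaps between the groups, Vegfa to Col4a1 lie lower in every Rec library, and Krt8 to Idi1 lie higher in every Rec library.

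The promoters of these genes were read for the core letters of the HIF binding element, ACGTG, on either strand. The search covered the 250 bases before a RefSeq start (GRCm38.p6), and a gene with several starts counts if any of them has a match. The letters stood in 19 of 31 tested HIF list members with a promoter entry (61.3%) and in 9 of 19 glycolysis members (47.4%). They stood in 25.3% of the 9693 tested genes with an entry and in 18.5% of all 27025 genes with one. A palindrome CACGTG counts on both strands and is also the E-box of other factors, and a match is no evidence of binding. Windows of 90 bases from 4 of the decreased genes are shown because they hold the letters, with each match in capitals, 5′ to 3′ along the gene's strand. The last match lay 131 bases before the RefSeq start used for Pgk1, 34 before that for Ldha, 107 before that for Bnip3 and 126 before that for Aldoa. Such a start need not be the first of its gene: the Ldha window lies inside the annotated gene, which begins at 46841475.
Pgk1, chrX:106186926-106187015, plus strand: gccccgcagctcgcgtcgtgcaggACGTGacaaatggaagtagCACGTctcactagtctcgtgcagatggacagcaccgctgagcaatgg
Ldha, chr7:46845714-46845803, plus strand: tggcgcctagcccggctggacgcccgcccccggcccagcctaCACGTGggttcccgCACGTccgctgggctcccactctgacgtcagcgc
Bnip3, chr7:138909567-138909656, minus strand: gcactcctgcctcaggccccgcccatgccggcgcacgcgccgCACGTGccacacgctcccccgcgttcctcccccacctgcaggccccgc
Aldoa, chr7:126799334-126799423, minus strand: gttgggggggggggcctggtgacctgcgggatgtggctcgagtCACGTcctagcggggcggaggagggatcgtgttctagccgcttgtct

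Most NRF2 targets fell in Rec. Of 41 tested members, 29 fell and 7 rose in Rec, with 14 decreases and no increase beyond 2-fold and a median log2 fold change of -0.56. Hmox1 (chromosome 8, 75093621 to 75100589, plus strand), heme oxygenase, had 104, 107, 101, 98.9 and 121 CPM in Rec, against 1010, 898, 967, 980 and 967 CPM in clone19. The 2 groups lay far apart (log2 fold change -3.18, SE 0.07, edgeR adjusted p = 1.07e-22), and clone1 and Fh1_fl_fl averaged 540 and 41.4 CPM. Nqo1, a quinone reductase, averaged 3.09 ± 0.788 CPM in Rec and 13.4 ± 2.2 CPM in clone19, and catalase (Cat) 39.0 ± 1.07 CPM in Rec and 142 ± 5.14 CPM in clone19.

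The ferritin subunits Fth1 and Ftl1, which store iron, had 1470 ± 153 and 421 ± 27.7 CPM in Rec, against 3030 ± 216 and 1720 ± 107 CPM in clone19. Fold changes among the glutathione and thioredoxin genes of the list differed in size and in sign. Gclm, the modifier subunit of the glutathione-synthesising ligase, had a log2 fold change of -0.23 (SE 0.06, edgeR adjusted p = 0.00265), the thioredoxin reductase Txnrd1 -0.34 (SE 0.05, edgeR adjusted p = 1.49e-06) and the cystine transporter Slc7a11 -0.45 (SE 0.13, edgeR adjusted p = 0.00387). Gsr, glutathione reductase, rose to 307 ± 10.7 CPM in Rec, against 173 ± 6.52 CPM in clone19 (log2 fold change 0.82, SE 0.05, edgeR adjusted p = 1.51e-13).

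Mesenchymal genes fell, the transcription factors Zeb1, Zeb2 and Snai2 among them. Of 26 tested members of the mesenchymal list, 16 fell and 5 rose in Rec, 12 and 1 of them beyond 2-fold, with a median log2 fold change of -0.94. Vim (chromosome 2, 13573927 to 13582826, plus strand), which encodes the intermediate filament vimentin, had 0.934, 1.08, 1.23, 0.941 and 1.62 CPM in Rec, against 71.1, 66.6, 65.2, 71.5 and 72.9 CPM in clone19. Rec held hardly any vimentin counts in any library, and the log2 fold change was -5.83 (SE 0.11, edgeR adjusted p = 4.81e-24). Zeb2 (chromosome 2, 44983632 to 45117395, minus strand), a repressor of E-cadherin, had 9.43, 5.11, 7.19, 7.17 and 5.78 CPM in Rec, against 52.0, 49.3, 49.1, 45.8 and 55.8 CPM in clone19.

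Its relative Zeb1, named after its values were seen, averaged 1.7 ± 0.492 CPM in Rec and 17.6 ± 1.56 CPM in clone19. Snai2, which also represses E-cadherin, averaged 1.85 ± 0.776 CPM in Rec and 8.17 ± 1.33 CPM in clone19. The log2 fold changes were -2.87 for Zeb2 (SE 0.12, edgeR adjusted p = 1.1e-17), -3.36 for Zeb1 (SE 0.17, edgeR adjusted p = 1.86e-15) and -2.18 for Snai2 (SE 0.19, edgeR adjusted p = 6.13e-11). Twist1, another EMT factor, did not pass the test at 17.6 ± 2.0 CPM in Rec and 19.7 ± 1.16 CPM in clone19 (log2 fold change -0.16, SE 0.1, edgeR adjusted p = 0.145). N-cadherin (Cdh2) had 364 ± 36.8 CPM in Rec and 416 ± 29.7 CPM in clone19 and also missed the threshold (log2 fold change -0.19, SE 0.09, edgeR adjusted p = 0.0527), which it passed in several alternatives.

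Secreted and matrix genes of this list fell too. Spp1, osteopontin, averaged 104 ± 4.84 CPM in Rec and 1690 ± 196 CPM in clone19 (log2 fold change -4.02, SE 0.09, edgeR adjusted p = 4.44e-23). Fibronectin (Fn1) averaged 1520 ± 258 CPM in Rec and 3750 ± 823 CPM in clone19. Ddr2, a collagen receptor kinase, averaged 1.23 ± 0.927 CPM in Rec and 97.0 ± 8.95 CPM in clone19. Postn, the matrix protein periostin, rose instead, to 6.23 ± 0.632 CPM in Rec, against 0.555 ± 0.241 CPM in clone19 (log2 fold change 3.49, SE 0.33, edgeR adjusted p = 3.93e-10).

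Of 25 tested collagen, laminin and basement membrane genes, 20 fell and 2 rose, with 11 decreases and no increase beyond 2-fold and a median log2 fold change of -0.98. Col4a1 (chromosome 8, 11198423 to 11312826, minus strand), a chain of the main basement membrane collagen, had 0.0934, 0, 0.0817, 0.235 and 0.463 CPM in Rec, against 40.8, 25.4, 30.4, 35.1 and 40.5 CPM in clone19. The gene was thus near its counting limit in every Rec library and well expressed in every clone19 library (log2 fold change -7.33, SE 0.28, edgeR adjusted p = 3.41e-18). Col4a2, its neighbour and partner chain, named after its values were seen, averaged 0.0702 ± 0.105 CPM in Rec and 14.3 ± 4.24 CPM in clone19. Col5a2, a fibrillar collagen chain, averaged 0.186 ± 0.145 CPM in Rec and 49.2 ± 5.53 CPM in clone19 (log2 fold change -7.96, SE 0.23, edgeR adjusted p = 8.84e-21). The laminin chain Lama3 was among the 2 increases, at 98.5 ± 14 CPM in Rec and 79.6 ± 2.84 CPM in clone19, and its groups overlapped. Beside these lists, 4 of 14 fibroblast, smooth muscle and pericyte markers were tested: Des, Pdgfra, Col1a1 and Dcn. They averaged 0.122, 0.731, 0.429 and 0.31 CPM in Rec, against 2.21, 3.57, 1.41 and 8.49 CPM in clone19. Genes this low in Rec can enter the test through groups where they are higher, so their shared direction is no result about the markers. The summed level of the 14 was 1.8 to 2.75 CPM in Rec and 14.2 to 19.6 CPM in clone19. The part of other cell types in these differences was not tested.

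Epithelial junction genes moved up less uniformly. Of 44 tested members, 24 rose and 13 fell in Rec, 8 and 2 of them beyond 2-fold, with a median log2 fold change of 0.31. Krt8 (chromosome 15, 101996698 to 102004482, minus strand), a simple-epithelium keratin, had 942, 1060, 969, 942 and 880 CPM in Rec, against 257, 207, 232, 264 and 252 CPM in clone19. Its log2 fold change was 1.98 (SE 0.08, edgeR adjusted p = 4.2e-18), and its partner Krt18 followed at 1.59 (SE 0.07, edgeR adjusted p = 1.38e-17). Epcam (chromosome 17, 87635979 to 87651129, plus strand), an epithelial adhesion molecule, had 416, 444, 400, 424 and 424 CPM in Rec, against 220, 242, 237, 215 and 213 CPM in clone19, with no overlap (log2 fold change 0.9, SE 0.08, edgeR adjusted p = 4.47e-11).

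E-cadherin (Cdh1) rose by less, with 400, 348, 321, 363 and 365 CPM in Rec, against 289, 256, 265, 255 and 296 CPM in clone19 (log2 fold change 0.4, SE 0.1, edgeR adjusted p = 0.000507). The lowest Rec library still lay above the highest clone19 library. The tight junction protein gene Cldn3 averaged 48.3 ± 5.5 CPM in Rec and 14.8 ± 2.55 CPM in clone19. Esrp1, which directs epithelial splicing, changed little, at 183 ± 9.14 CPM in Rec and 165 ± 6.75 CPM in clone19 (log2 fold change 0.15, SE 0.05, edgeR adjusted p = 0.012).

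The 2 large decreases were in genes that epithelia otherwise use. Ap1m2, a subunit of the epithelial sorting adaptor, averaged 0.505 ± 0.237 CPM in Rec and 18.7 ± 1.74 CPM in clone19 (log2 fold change -5.23, SE 0.18, edgeR adjusted p = 3.87e-19). Dsc2, a desmosomal cadherin, had 1 count over all Rec libraries and averaged 6.7 ± 1.09 CPM in clone19. The ratio of its CPM in clone19 to that in Rec was 388 (exact 95% counting interval 69 to 15400). In clone1 and Fh1_fl_fl, Ap1m2 averaged 1.38 and 60.5 CPM, and Dsc2 0.0173 and 19.5 CPM.

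**Figure D2:**
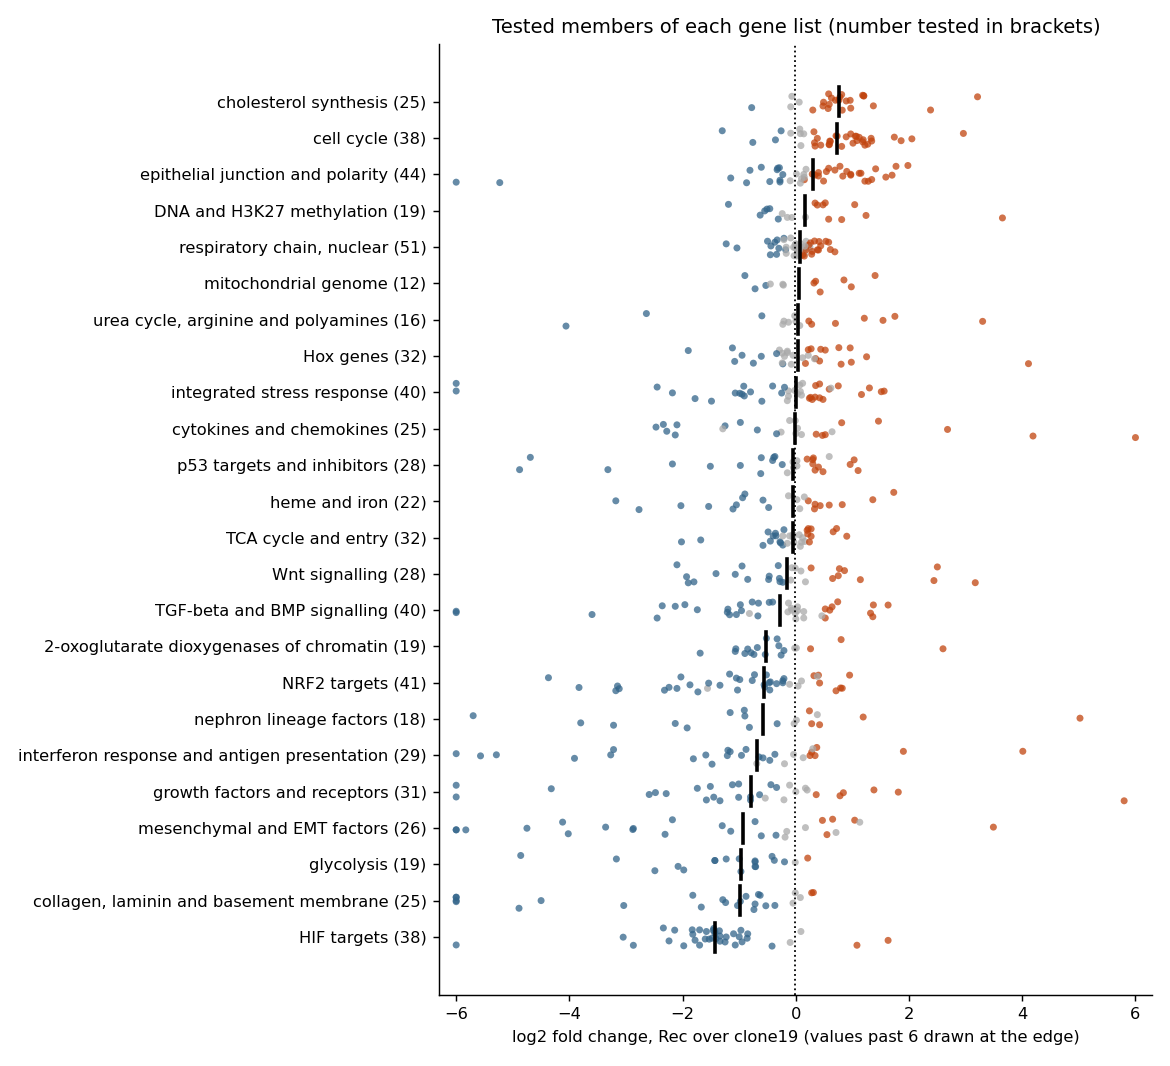
log2 fold change of Rec over clone19 (horizontal axis) for the tested members of each gene list (rows, ordered by median), each point 1 gene, orange where called higher in Rec, blue where called lower and grey where not called, with the list median as a black bar and the median over all tested genes as a dotted line. HIF targets have the lowest median at -1.43, and cholesterol synthesis and cell cycle the highest at 0.76 and 0.72.

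Genes of the cell cycle were higher in Rec. Of 38 tested members, 29 rose and 4 fell, 11 and 1 of them beyond 2-fold, with a median log2 fold change of 0.72. Rrm2 (chromosome 12, 24708241 to 24714146, plus strand), the ribonucleotide reductase subunit that limits nucleotide supply in S phase, had 567, 601, 564, 558 and 566 CPM in Rec, against 70.3, 80.8, 69.4, 72.9 and 73.8 CPM in clone19. It had the largest increase of the list (log2 fold change 2.96, SE 0.07, edgeR adjusted p = 3.69e-23), with little spread within either group.

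The proliferation antigen Mki67 averaged 452 ± 56.0 CPM in Rec and 276 ± 36.9 CPM in clone19, and Ccnb1, the mitotic cyclin, 201 ± 6.67 CPM in Rec and 100 ± 9.38 CPM in clone19. The replicative helicase subunits Mcm2 and Mcm5, the second named after its values were seen, had log2 fold changes of 0.38 (SE 0.07, edgeR adjusted p = 3.13e-05) and 1.74 (SE 0.06, edgeR adjusted p = 2.29e-19). Ccne1, the cyclin that starts S phase, fell to 8.03 ± 0.911 CPM in Rec, against 19.9 ± 1.47 CPM in clone19 (log2 fold change -1.3, SE 0.1, edgeR adjusted p = 1.12e-11). Among p53 targets and inhibitors, 10 of 28 rose (35.7%) and 12 fell (42.9%), near the 35.8% and 38.0% over all tested genes. The cell cycle inhibitors Cdkn2a and Cdkn2b did not pass the test, with log2 fold changes of 0.02 (SE 0.1, edgeR adjusted p = 0.852) and -0.15 (SE 0.1, edgeR adjusted p = 0.184). Other cell cycle inhibitors of the list were called, in both directions. Trp53 rose to 660 ± 43.9 CPM in Rec, against 339 ± 12.5 CPM in clone19.

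Cholesterol synthesis rose as nearly a whole pathway. Of 25 tested members, 21 rose, 5 of them beyond 2-fold, with a median log2 fold change of 0.76, and the rest fell or did not pass the test. Idi1 (chromosome 13, 8885501 to 8892451, plus strand), isopentenyl diphosphate isomerase, had 292, 374, 355, 340 and 298 CPM in Rec, against 58.5, 78.1, 62.8, 61.9 and 55.9 CPM in clone19. This was a log2 fold change of 2.38 (SE 0.09, edgeR adjusted p = 9.42e-19) with no overlap. The synthase Hmgcs1 averaged 325 ± 19.3 CPM in Rec and 216 ± 18.2 CPM in clone19, and the epoxidase Sqle 298 ± 16.4 CPM in Rec and 170 ± 8.07 CPM in clone19.

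The promoters were searched in the same way for a sterol element, TCACNCCAC, and for the cell cycle homology region, TTTGAA. The sterol element stood in 1 of 17 cholesterol members with a promoter entry (5.9%), against 1.2% of tested genes, and TTTGAA in 8 of 28 cell cycle members (28.6%), against 12.5% of tested genes. The antioxidant element TGACNNNGC stood in 8 of 35 NRF2 members (22.9%), against 14.2% of tested genes. A window for each of the lists that rose is shown, with the matches in capitals.
Hmgcs1, chr13:119690173-119690262, plus strand: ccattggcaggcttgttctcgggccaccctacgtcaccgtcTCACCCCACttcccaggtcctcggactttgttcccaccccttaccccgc
Mki67, chr7:135716430-135716519, minus strand: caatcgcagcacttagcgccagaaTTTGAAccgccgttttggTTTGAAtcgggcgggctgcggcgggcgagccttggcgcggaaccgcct

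The TCA cycle and the respiratory chain changed in both directions and by little. Of 32 tested TCA cycle and entry genes, 9 rose and 12 fell, with a median log2 fold change of -0.05, and of 51 nuclear respiratory chain genes 16 rose and 11 fell, with a median of 0.08. These shares called, in either direction, were below those over all tested genes. Pcx, pyruvate carboxylase, which feeds the cycle with oxaloacetate, stood out at 18.4 ± 1.91 CPM in Rec and 74.6 ± 10.5 CPM in clone19 (log2 fold change -2.02, SE 0.1, edgeR adjusted p = 1.85e-15). Cs, citrate synthase, rose to 620 ± 25.8 CPM in Rec, against 392 ± 17.0 CPM in clone19, and Sdha, a subunit of succinate dehydrogenase, fell to 202 ± 11 CPM in Rec, against 257 ± 15.4 CPM in clone19. The malate dehydrogenase Mdh2, the enzyme after fumarate hydratase, had 415 ± 30.1 CPM in Rec and 399 ± 27.9 CPM in clone19 and did not pass the test (log2 fold change 0.06, SE 0.06, edgeR adjusted p = 0.41).

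Transcripts of the mitochondrial genome moved in opposite directions. Of 12 tested, 6 rose and 3 fell. The complex I subunit mt-Nd1 (mitochondrial genome, 2751 to 3707, plus strand) had 2960, 5050, 3900, 3990 and 4530 CPM in Rec, against 1260, 1950, 1540, 1470 and 1520 CPM in clone19 (log2 fold change 1.4, SE 0.12, edgeR adjusted p = 8.29e-11). The oxidase subunit mt-Co1 (5328 to 6872, plus strand) had 6280, 11100, 9160, 9750 and 10900 CPM in Rec, against 13500, 18600, 15400, 14800 and 15500 CPM in clone19 (log2 fold change -0.72, SE 0.12, edgeR adjusted p = 3.49e-06). Rec replicate 1 was the lowest Rec library for both genes. The summed share of counts from the mitochondrial genome was 2.5621 to 4.2683% in Rec and 3.5115 to 5.0325% in clone19, and reads shared with nuclear copies of mitochondrial sequence entered no gene.

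Of 40 tested members of the integrated stress response list, 14 rose (35.0%) and 16 fell (40.0%) in Rec, with a median log2 fold change of 0.01, and these shares were close to the 35.8% and 38.0% over all tested genes. The stress factor Ddit3 (chromosome 10, 127290774 to 127296288, plus strand), also called CHOP, had 33.7, 41.7, 39.9, 33.4 and 38.9 CPM in Rec, against 216, 216, 194, 216 and 186 CPM in clone19 (log2 fold change -2.45, SE 0.07, edgeR adjusted p = 1.98e-20). The pseudokinase Trib3 averaged 73.6 ± 1.82 CPM in Rec and 143 ± 5.93 CPM in clone19. Gdf15, a stress cytokine named after its values were seen, averaged 292 ± 20.7 CPM in Rec and 1330 ± 249 CPM in clone19.

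Other members of the list rose or were not called. Slc38a2, a neutral amino acid transporter, rose to 1010 ± 98.9 CPM in Rec, against 354 ± 22.9 CPM in clone19 (log2 fold change 1.51, SE 0.08, edgeR adjusted p = 1.33e-15). Phgdh, the first enzyme of serine synthesis, rose to 431 ± 36.9 CPM in Rec, against 321 ± 27.1 CPM in clone19. The asparagine synthetase Asns missed the threshold at 544 ± 27.9 CPM in Rec and 603 ± 30.3 CPM in clone19 (log2 fold change -0.15, SE 0.07, edgeR adjusted p = 0.0583).

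Among urea cycle, arginine and polyamine genes, 7 of 16 rose (43.8%) and 3 fell (18.8%), against 35.8% and 38.0% over all tested genes. Ass1, argininosuccinate synthase, whose pathway makes fumarate and arginine, had 4.3, 5.11, 4.0, 5.76 and 5.73 CPM in Rec, against 79.5, 79.9, 86.7, 89.0 and 81.4 CPM in clone19. The difference was a log2 fold change of -4.06 (SE 0.09, edgeR adjusted p = 4.44e-23), while Asl, the next enzyme, which releases the fumarate, had 34.0 ± 1.51 CPM in Rec and 33.9 ± 2.84 CPM in clone19. Odc1, the first enzyme of polyamine synthesis, rose to 656 ± 26.9 CPM in Rec, against 195 ± 10.1 CPM in clone19 (log2 fold change 1.75, SE 0.06, edgeR adjusted p = 1.19e-19). Its antizyme Oaz1 rose to 254 ± 27.8 CPM in Rec, against 87.4 ± 8.53 CPM in clone19. Of 22 heme and iron genes, 8 rose (36.4%) and 10 fell (45.5%), shares near those over all tested genes. The transferrin receptor Tfrc rose to 939 ± 68.8 CPM in Rec, against 283 ± 23.0 CPM in clone19 (log2 fold change 1.73, SE 0.07, edgeR adjusted p = 1.38e-17), opposite to the ferritins. Alas1, which starts heme synthesis, fell to 33.3 ± 1.81 CPM in Rec, against 62.4 ± 5.15 CPM in clone19.

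Interferon response and antigen presentation genes were mostly lower, with 18 of 29 down and 6 up and a median log2 fold change of -0.69. B2m, the light chain of class I antigen presentation, averaged 146 ± 8.03 CPM in Rec and 407 ± 40.4 CPM in clone19 (log2 fold change -1.48, SE 0.08, edgeR adjusted p = 2.18e-15). Cgas, the sensor of DNA in the cytosol, had 18.3, 14.2, 17.9, 18.1 and 19.6 CPM in Rec, against 0.663, 1.27, 1.05, 0.885 and 1.43 CPM in clone19 (log2 fold change 4.01, SE 0.16, edgeR adjusted p = 4.28e-18). The interferon gene Isg15 was near 0 in both, with 3 counts over the Rec libraries and 7 over the clone19 libraries.

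Cytokines and chemokines gave 8 increases (32.0%) and 9 decreases (36.0%) among 25, near the 35.8% and 38.0% over all tested genes. Cxcl5, a neutrophil chemokine, averaged 78.9 ± 7.18 CPM in Rec and 4.29 ± 0.775 CPM in clone19, and Cxcl1, a close relative, 12.7 ± 1.66 CPM in Rec and 0.081 ± 0.113 CPM in clone19. The ratio of Cxcl1 CPM in Rec to that in clone19 was 170 (exact 95% counting interval 57.8 to 824). Csf1, the macrophage growth factor, fell to 35.3 ± 4.7 CPM in Rec, against 171 ± 15.3 CPM in clone19 (log2 fold change -2.28, SE 0.09, edgeR adjusted p = 1.23e-17).

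Of 19 tested dioxygenases of chromatin that use oxoglutarate, 14 fell and 3 rose, with a median log2 fold change of -0.52. Tet2, which oxidises methylated cytosine, rose to 2.17 ± 0.196 CPM in Rec, against 0.351 ± 0.161 CPM in clone19, and the RNA demethylase Alkbh5 fell to 183 ± 13.8 CPM in Rec, against 342 ± 20.2 CPM in clone19. Among 19 DNA and H3K27 methylation genes, 9 rose (47.4%) and 6 fell (31.6%), against 35.8% and 38.0% over all tested genes. The de novo DNA methyltransferase Dnmt3b averaged 3.49 ± 0.783 CPM in Rec and 0.301 ± 0.161 CPM in clone19 (log2 fold change 3.65, SE 0.35, edgeR adjusted p = 4.01e-10), and Uhrf1, which guides maintenance methylation in S phase, 185 ± 8.42 CPM in Rec and 78.2 ± 7.59 CPM in clone19. Ezh2 rose to 164 ± 10.0 CPM in Rec, against 109 ± 6.69 CPM in clone19, while its homologue Ezh1 fell to 36.2 ± 2.59 CPM in Rec, against 82.8 ± 5.17 CPM in clone19.

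Developmental regulators and signalling genes moved both ways. Of 32 Hox genes 13 rose and 8 fell, and of 18 nephron lineage factors 5 rose and 10 fell. Pax2, a regulator of kidney development, had 95.2, 92.3, 97.6, 92.3 and 102 CPM in Rec, against 44.7, 26.7, 43.9, 44.0 and 50.5 CPM in clone19 (log2 fold change 1.19, SE 0.1, edgeR adjusted p = 7.73e-11). Pax8, its relative, went down to 184 ± 13.0 CPM in Rec, against 232 ± 18.3 CPM in clone19. Lhx1, another early nephron factor, had 116 counts over the Rec libraries and 2 over the clone19 libraries, a ratio of CPM of 39.8 (exact 95% counting interval 10.8 to 332). Gata3, a factor of the nephric and collecting ducts, fell to 3.32 ± 0.578 CPM in Rec, against 12.5 ± 1.21 CPM in clone19.

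Growth factors and receptors fell in 19 of 31 cases (61.3%) and rose in 6 (19.4%), with a median log2 fold change of -0.8. The shares over all tested genes were 38.0% and 35.8%. Fgf13, a fibroblast growth factor homologue that acts inside the cell, averaged 0.137 ± 0.15 CPM in Rec and 60.0 ± 5.69 CPM in clone19 (log2 fold change -8.85, SE 0.2, edgeR adjusted p = 6.99e-23), and the receptor Fgfr2 12.6 ± 1.01 CPM in Rec and 35.8 ± 3.09 CPM in clone19. Egfr, the epidermal growth factor receptor, had 135 ± 21.8 CPM in Rec and 145 ± 11.5 CPM in clone19 and did not pass the test (edgeR adjusted p = 0.363). TGF-beta and BMP genes fell in 19 of 40 cases and rose in 9, and Wnt genes fell in 14 of 28 and rose in 9. Tgfbr2, a TGF-beta receptor, rose to 468 ± 32.2 CPM in Rec, against 300 ± 12.6 CPM in clone19, while the co-receptor Tgfbr3 fell to 1.4 ± 0.452 CPM in Rec, against 17.8 ± 2.82 CPM in clone19.

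The largest differences across all genes were mostly losses of counts in Rec. Peg3 (chromosome 7, 6703892 to 6730431, minus strand), a zinc finger gene expressed from the paternal allele, had 0.0934, 0.0982, 0.0817, 0.118 and 0.174 CPM in Rec, against 814, 861, 931, 832 and 928 CPM in clone19. The gene was close to its counting limit in every Rec library and high in every clone19 library (log2 fold change -12.71, SE 0.28, edgeR adjusted p = 3.69e-23), and clone1 and Fh1_fl_fl averaged 1010 and 145 CPM. The other 9 genes that the naming rule chose had no count in any Rec library. Against 3 counts over the whole Rec group, Nt5e, the enzyme that forms adenosine at the cell surface, was at least 877-fold lower in Rec, the leucine-rich repeat gene Lrch2 at least 693-fold, the ubiquitin ligase gene Trim50 at least 575-fold and the opioid receptor gene Oprk1 at least 248-fold. In clone19 these averaged 44.5 ± 2.44 CPM for Nt5e, 34.9 ± 2.75 CPM for Lrch2, 29.3 ± 3.98 CPM for Trim50 and 12.7 ± 1.17 CPM for Oprk1. Trim50 and Hopx, a homeodomain gene with 14.5 ± 1.63 CPM in clone19, also averaged 0.0 CPM in both clone1 and Fh1_fl_fl, so among the 4 groups they were counted in clone19 alone.

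Among increases, the leptin receptor gene Lepr (chromosome 4, 101717404 to 101815352, plus strand) had 64.0, 53.8, 50.7, 60.1 and 53.6 CPM in Rec, against 0, 0.23, 0.874, 0.885 and 0.307 CPM in clone19 (log2 fold change 6.87, SE 0.2, edgeR adjusted p = 8.55e-21). Xirp2, an actin-binding protein known from striated muscle, averaged 23.8 ± 3.86 CPM in Rec and 0.213 ± 0.184 CPM in clone19. The transglutaminase Tgm1, known from keratinocytes, averaged 31.0 ± 3.94 CPM in Rec and 1.07 ± 0.5 CPM in clone19, and the transcription factor Myb 10.1 ± 0.573 CPM in Rec and 0.396 ± 0.181 CPM in clone19. By absolute level, Anxa1 (chromosome 19, 20373428 to 20390944, minus strand), a phospholipid-binding protein, rose to 3860 ± 251 CPM in Rec, against 931 ± 132 CPM in clone19 (log2 fold change 2.05, SE 0.08, edgeR adjusted p = 1.32e-17). The chaperone Hsp90ab1 and the nucleolar proteins Npm1 and Ncl also rose, to 7760 ± 125, 2970 ± 200 and 2880 ± 234 CPM in Rec, against 5040 ± 134, 1620 ± 219 and 1610 ± 76.7 CPM in clone19.

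Whether the Rec to clone19 difference mirrored that between the other deletion clone and wild-type cells was examined with clone1 and Fh1_fl_fl, which share no library with Rec or clone19. Between clone1 and Fh1_fl_fl 9954 genes (78.6%) differed, 4820 (38.0%) higher and 5134 (40.5%) lower in clone1. Of the genes higher in Rec, 2579 were lower in clone1 (56.8% of the genes higher in Rec and 50.2% of those lower in clone1) and 1066 were higher there (23.5% and 22.1%). Of the genes lower in Rec, 2680 were higher in clone1 (55.7% of the genes lower in Rec and 55.6% of those higher in clone1) and 1190 were lower there (24.7% and 23.2%). Across the 12671 genes, which are not independent and were fitted in 1 model, Pearson's r between the log2 fold changes was -0.364.

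The sum of the 2 log2 fold changes is 0 where one difference is the exact reverse of the other. It differed from 0 for 8661 genes (68.4%), 4080 with a positive and 4581 with a negative sum. Of 5259 genes called in both comparisons with opposite signs, 2911 had a sum that differed from 0 and 2348 did not. A further 2256 genes were called in both with the same sign.

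HIF targets moved in opposite directions in the 2 comparisons. In clone1, 35 of 38 were higher and 3 lower than in Fh1_fl_fl, with a median log2 fold change of 1.34, against -1.43 in Rec over clone19, although the sum was called for 27 of them, a share close to the 68.4% over all tested genes. Ldha had log2 fold changes of -1.0 in Rec over clone19 and 1.01 in clone1 over Fh1_fl_fl, with a sum of 0.0 (SE 0.09, edgeR adjusted p = 0.985). Bnip3 had -2.34 and 2.24, with a sum of -0.1 (edgeR adjusted p = 0.604), and the vimentin gene Vim -5.83 and 6.22, with a sum of 0.39 (edgeR adjusted p = 0.0581). A sum that misses the threshold does not show that the 2 differences were equal in size.

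NRF2 targets and stress response genes differed more in clone1. Of 41 NRF2 targets, 37 were higher in clone1, with a median log2 fold change of 2.16, against -0.56 in Rec over clone19, and the sum was called for 34. Slc7a11 had a log2 fold change of -0.45 in Rec over clone19 and 6.15 in clone1 over Fh1_fl_fl, with a sum of 5.71 (edgeR adjusted p = 2.32e-18). Its mean levels were 117 CPM in Rec, 160 in clone19, 656 in clone1 and 9.37 in Fh1_fl_fl. Of 40 stress response genes, 37 were higher in clone1, with a median of 1.29, against 0.01 in Rec over clone19, and the sum was called for 38. The asparagine synthetase Asns had -0.15 and 2.44, with a sum of 2.29 (edgeR adjusted p = 9.7e-17).

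Cell cycle and cholesterol genes, most of which rose in Rec, differed in both directions in clone1, where 38.0% of all tested genes were higher and 40.5% lower. Of 38 cell cycle genes, 21 were higher and 12 lower in clone1, with a median log2 fold change of 0.17, and of 25 cholesterol genes 7 were higher and 12 lower, with a median of -0.11. The proliferation antigen Mki67 was higher in both comparisons, by 0.71 in Rec over clone19 and 0.68 in clone1 over Fh1_fl_fl (sum 1.4, edgeR adjusted p = 1.96e-08). Epithelial junction genes fell in clone1 by more than they rose in Rec, with 37 of 44 lower, a median of -1.39 against 0.31, and a called sum for 41. Epcam had 0.9 in Rec over clone19 and -2.34 in clone1 over Fh1_fl_fl, with a sum of -1.44 (edgeR adjusted p = 7.68e-12).

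Some genes fell in both comparisons. The mitochondrial thiolase gene Acat1 averaged 0.567 CPM in Rec, 38.2 in clone19, 0.162 in clone1 and 55.5 in Fh1_fl_fl, with log2 fold changes of -6.02 and -8.65 (sum -14.67, edgeR adjusted p = 2.67e-23). Tspan6, a tetraspanin gene on the X chromosome, averaged 0.253 CPM in Rec, 40.1 in clone19, 0.052 in clone1 and 17.2 in Fh1_fl_fl (sum -15.09, edgeR adjusted p = 6.02e-21). For these genes Rec resembled clone1 more than it resembled clone19 in level. Arg1, the cytosolic arginase, was higher in both comparisons, at 3.74 CPM in Rec, 0.39 in clone19, 79.5 in clone1 and 3.4 in Fh1_fl_fl (sum 7.85, edgeR adjusted p = 6.53e-19).

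**Figure D3:**
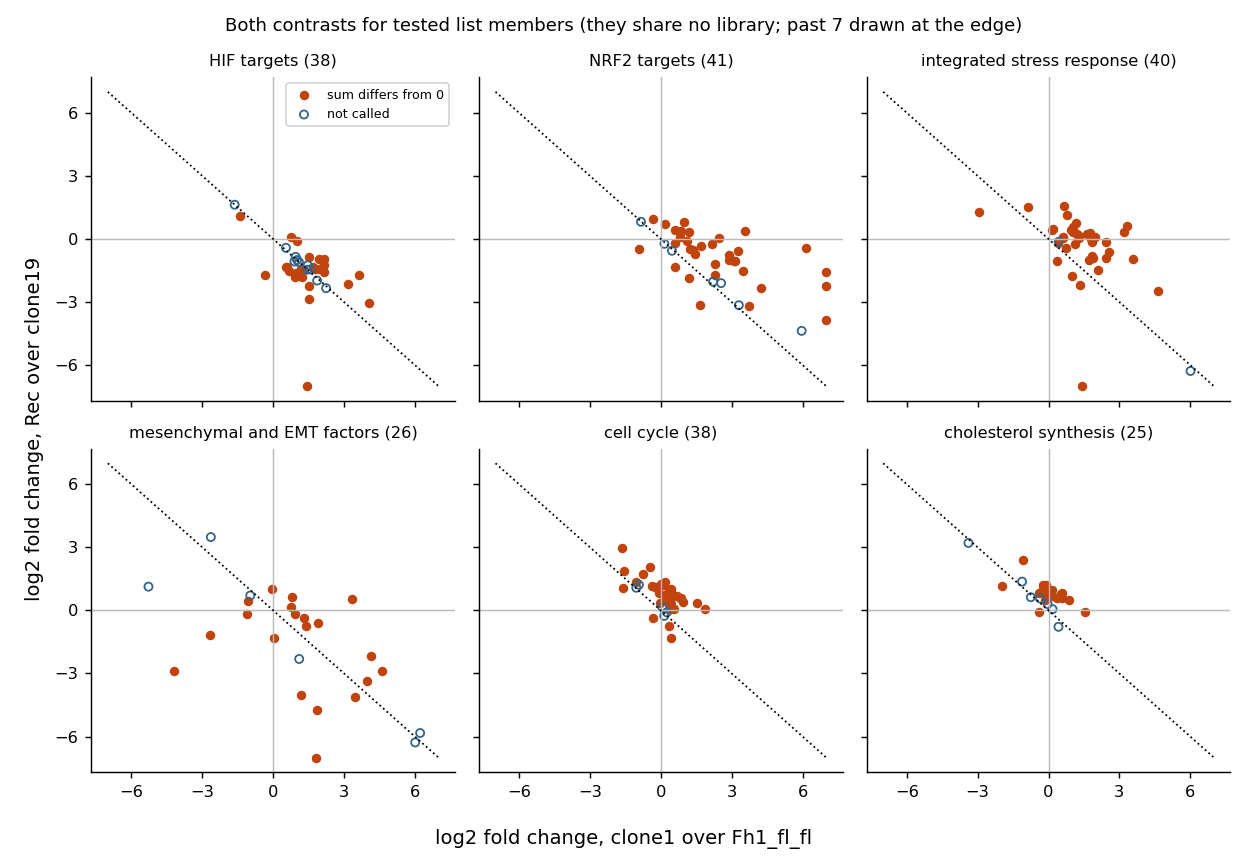
log2 fold change of Rec over clone19 (vertical axis) against that of clone1 over Fh1_fl_fl (horizontal axis) for the tested members of 6 lists, each point 1 gene, with filled points where the sum of the 2 differs from 0 and open points where it was not called, and the dotted line where the sum is 0. HIF targets have medians of -1.43 and 1.34, with the sum called for 27 of 38, while stress response genes spread to the right of it, with medians of 0.01 and 1.29.

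The Rec to clone19 differences were uneven over the chromosomes. On chromosome 10 the median log2 fold change was 0.58, and 393 of 575 tested genes (68.3%) were higher in Rec, against 35.8% over all tested genes. On the X chromosome the median was -0.54, and 265 of 416 genes (63.7%) were lower in Rec, against 38.0% over all tested genes. The next in size among the autosomes were chromosome 9 at -0.31 and chromosome 12 at 0.29. When chromosome 10 was divided by position into 8 runs of genes, the median of each run lay between 0.27 and 0.78, so all runs shared the sign. On the X chromosome the runs lay between -0.85 and 0.08.

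The chromosome 10 median was 0.27 in Rec over Fh1_fl_fl and -0.26 in clone19 over Fh1_fl_fl, comparisons that share libraries with each other and with Rec over clone19. The Y chromosome had 5 tested genes, with a median of -0.59, and 1 of them, Gm47283, was lower in Rec, at 11.7 CPM in Rec and 17.3 CPM in clone19. The other 4 were at or near 0 in both Rec and clone19. Ddx3y and Eif2s3y had no count in Rec or clone19, against 17.4 and 30.7 CPM in Fh1_fl_fl. Kdm5d and Uty averaged 0.0 and 0.0235 CPM in Rec and 0.0331 and 0.0681 CPM in clone19, against 14.1 and 14.9 CPM in Fh1_fl_fl, and these Y-linked genes were named after their values were seen. Summed over the 5 genes, the level was 8.59 to 15.1 CPM in Rec, 13.9 to 19.9 CPM in clone19, 6.24 to 20.1 CPM in clone1 and 82.4 to 88.0 CPM in Fh1_fl_fl. Gene copy number was not measured, and its part in these medians was not tested. When the median of its own chromosome was subtracted from each gene, an alternative chosen after seeing the data, the list medians were -1.3 for HIF targets, -0.78 for NRF2 targets, -1.02 for mesenchymal genes, 0.75 for the cell cycle and 0.68 for cholesterol synthesis.

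**Figure D4:**
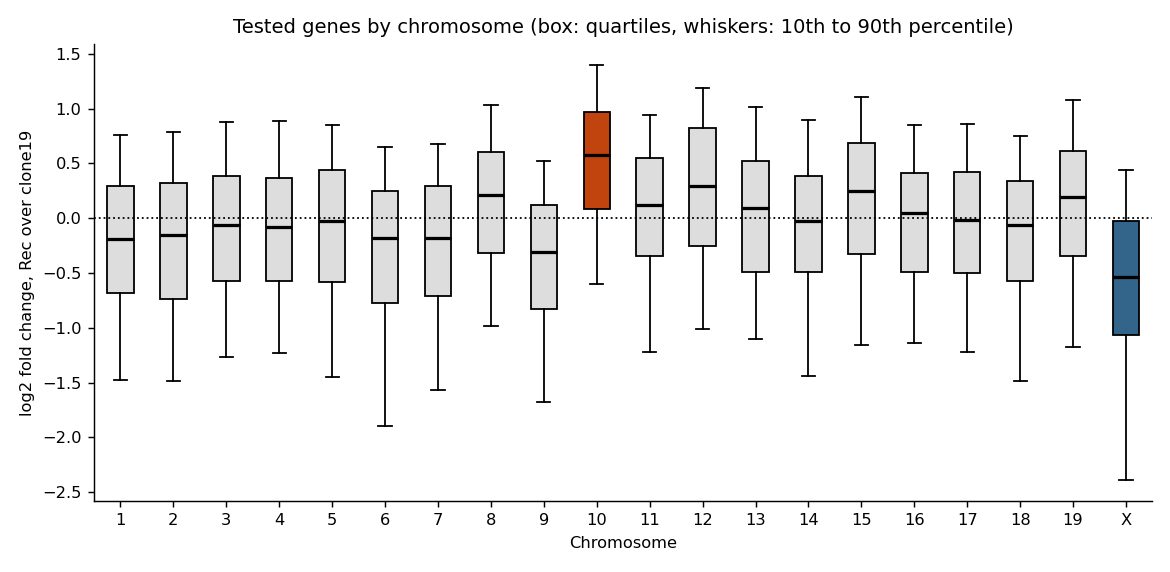
log2 fold change of Rec over clone19 (vertical axis) of the tested genes of each autosome and the X chromosome (horizontal axis), with the median as a line, quartiles as a box and whiskers from the 10th to the 90th percentile. Among the autosomes and the X chromosome, which are the ones plotted, chromosome 10 (orange) has the highest median at 0.58 and the X chromosome (blue) the lowest at -0.54.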

How the data were processed

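For each library the authors deposited a table of raw read counts by Ensembl gene, with summary lines at its end. The submitters' processing notes name GRCm38 as the build and list DESeq 1.10.1, HTSeq 0.5.3p9 and TopHat2 2.0.4. What each tool did, the annotation release and the strand setting were not given in the sources used here, so reads of overlapping genes on opposite strands cannot be told apart. Reads without a unique alignment, 31.239 to 34.303% of a Rec library and 30.195 to 40.289% of a clone19 library, stood in a summary line and entered neither library sizes nor tests. Symbols and coordinates came from GENCODE M21 on GRCm38, matched by Ensembl identifier for 37693 of 39179 genes.

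A model was fitted with edgeR 4.0.16 (R 4.3.3) to all 20 libraries, with 1 mean per group, so that the groups share an estimate of the spread (common biological coefficient of variation 9.02%). Genes passing filterByExpr were tested (12671, with 26508 left out), TMM scaling (trimmed mean of M-values) was applied, and contrasts were tested with glmQLFTest, adjusted by Benjamini-Hochberg over all tested genes at a threshold of 0.05. For a change beyond 2-fold, glmTreat was used with a log2 bound of 1. The procedure was tested on simulated data. Where a group held no count, the fold is a bound against 3 counts over the group, and with 1 to 3 counts an exact 95% counting interval is given. Lists are described by counts and medians, with no test of a list. The motif search used RefSeq promoters of GRCm38.p6, with an entry for 9693 tested genes.

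Genes were named by 1 rule: Fh1, key members of each list, the 10 highest and 10 lowest fold changes among protein-coding genes of at least 10 CPM past glmTreat without overlap, the 6 largest CPM differences each way, the smallest adjusted p each way in each list, and the 5 largest sums each way. A few genes are not reported here. The rule gave 194 others, and 12 more, beside 5 genes of the Y chromosome, were chosen after their values were seen. The gene lists and the comparison itself were chosen with earlier results of these data known. No libraries were identical. Chi-square per degree of freedom for pairs of libraries within a group was 2.63 to 19.43, and 61.83 to 92.17 in the pairs of clone19 replicate 3. The alternatives were DESeq2 1.42.0, other scalings, no filter, Rec and clone19 alone, removal of Gm42418 and the mitochondrial genome, a replicate block, and leaving out each library.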

Additional observations from a re-analysis of the deposited data

Results flagged for a closer look

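In 29 of 342 groups of 5 libraries, 1 library lay apart from the other 4 by more than Dixon's 95% critical value of 0.71 of the range. Chance alone flags about 1 in 20 such groups. Of these, 18 were in Rec, 10 of them in replicate 2 and 5 in replicate 1, and 11 were in clone19, 3 in replicate 2, 3 in replicate 5 and 1 in replicate 3. All values are CPM, and their cause was not tested.

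Rec replicate 2 was highest for Mdh2 (467), Id1 (8.64), Mctp1 (13.8), Tgm1 (37.7), Eef1g (5100), Atp5b (2590), Rrm2 (601), Ifi27 (2.06), Hoxc13 (3.34) and Cdk1 (402). The other 4 Rec libraries had 558 to 567 CPM of Rrm2 and 344 to 361 CPM of Cdk1. Rec replicate 1 was highest for Mcm2 (267), Tgfbr2 (525), Podxl (191) and Ltbp1 (103) and lowest for mt-Nd5 (845, against 1270 to 1390 in the others). Rec replicate 3 was lowest for Sdha (183) and highest for H2afy2 (17.9), and replicate 5 was lowest for Spp1 (96.1).

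In clone19, replicate 2 was lowest for Chac1 (104), Pax2 (26.7) and Pkdcc (10), and replicate 5 was lowest for Hoxd10 (13.1), Hopx (11.7) and Pdk1 (219). Replicate 1 was highest for Vat1l (21.7) and Csf1r (11.3), and replicate 3 was highest for Fgfr2 (41.3). Replicate 4 was lowest for Slc38a2 (314) and highest for Usp29 (4.52). The direction of Rec against clone19 held for every gene flagged here when the flagged library was left out, except that Mdh2 was not called with or without it.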

How the results depend on the processing

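With 1 library of the 20 left out at a time, 9143 to 9586 genes were called in Rec against clone19, 1904 to 2019 of them beyond 2-fold, and the sum with clone1 over Fh1_fl_fl was called for 8506 to 8731 genes. The numbers called, beyond 2-fold and with a called sum were 9382, 1620 and 8730 with DESeq2, 9352, 1956 and 8677 with its size factors in edgeR, 9274, 1943 and 8678 with library totals, 10371, 2359 and 9203 of 23313 genes with no filter, and 9365, 1962 and 8674 without Gm42418 and the mitochondrial genome. Rec and clone19 alone gave 8889 called and 1690 beyond 2-fold. No gene called in both a given alternative and the reported fit changed direction. In each of these alternatives the numbers of genes stayed within a factor of 1.5 of the reported ones, and Fh1 kept its side of the threshold. The replicate numbers were not treated as pairs in the reported fit. Same-numbered Rec and clone19 libraries correlated at r = -0.041 to 0.145 in their deviations (5 pairs), others at -0.197 to 0.189 (20 pairs). With so few pairs, these overlapping ranges cannot settle whether the numbers pair the libraries. With a replicate block, 9310 genes were called, 1944 beyond 2-fold, and 8610 sums.

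Among single genes, 5 with no call and a fold change near 0 changed sign. Asl had -0.0 with DESeq2, its size factors and library totals and -0.03 to 0.06 without single libraries. Tgfb2 had 0.0 with Rec and clone19 alone, 0.03 with no filter, 0.01 without Gm42418 and the mitochondrial genome and -0.12 to 0.07 without single libraries. Ndufs1 had 0.02 with no filter and -0.02 to 0.02 without single libraries, Cdkn2a -0.03 to 0.09 and Muc4 -0.22 to 0.12. Calls for Irf7, Ndufa9, Slc16a1 and Fech were lost in some alternatives, and Cdh2, Met, Asns, Arg2 and mt-Cytb gained one. The mitochondrial genome list has no value where its genes are removed. Depth limits the weakest genes: 3 counts correspond to 0.1683 to 0.3459 CPM in single Rec libraries and 0.2972 to 0.501 CPM in clone19.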

Other observations

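Known imprinted genes, a list of 30 written after the loss of Peg3 was seen and therefore given with no test, were mostly lower in Rec. Of 18 tested members, 15 fell and 2 rose, against 38.0 and 35.8% of all tested genes. Usp29, Plagl1, Mest and Grb10 had 0 counts over the Rec libraries, and Ndn, Peg12, Kcnq1 and Zim1 had 1 to 3. These members entered the test through other groups and could hardly be called higher in Rec. The counts of falls and rises therefore cannot be read against the shares over all tested genes. Of 12 expressed from the paternal allele 10 fell, and of 6 expressed from the maternal allele 5 fell. Peg3 itself is counted in the 15 and in the 10, and neighbours such as Peg3 and Usp29 count as separate members. Usp29, the neighbour of Peg3, had 0 counts over the Rec libraries and 3.33 CPM in clone19, and it was at least 66.6-fold lower in Rec. The growth suppressor Plagl1 and the hydrolase gene Mest had 0 counts in Rec too, with 4.77 and 2.76 CPM in clone19, and were at least 95.3-fold and 54.4-fold lower. Ndn, from the Prader-Willi region, had 2 counts over the Rec libraries and 7.02 CPM in clone19, a ratio of clone19 to Rec of 209 (exact 95% counting interval 57.4 to 1740). The maternally expressed inhibitor Cdkn1c averaged 0.0791 CPM in Rec and 2.1 CPM in clone19. Peg10 and Phlda2 rose, to 67.3 and 11.8 CPM in Rec, against 51.9 and 5.86 CPM in clone19, and Impact did not pass the test at 22.4 CPM in Rec and 21.9 CPM in clone19 (edgeR adjusted p = 0.658).

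In the other cells these genes did not all share a pattern. The maternally expressed Grb10, Zim1, Cdkn1c and Kcnq1 averaged 22.0, 28.3, 10.2 and 3.75 CPM in Fh1_fl_fl. They averaged 0.255, 0.678, 2.1 and 0.91 CPM in clone19 and 0.369, 1.21, 0.0194 and 0.465 CPM in clone1. Igf2r, also maternally expressed and lower in Rec, averaged 278 CPM in clone19, 363 CPM in clone1 and 217 CPM in Fh1_fl_fl. Plagl1 averaged 0.0 CPM in clone1 and 2.99 CPM in Fh1_fl_fl, and Mest 11 CPM in clone1 and 25.8 CPM in Fh1_fl_fl, but Peg3 was higher in clone1, at 1010 CPM in clone1 and 145 CPM in Fh1_fl_fl.

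Among other genes, Pogk, a transposon-derived zinc finger gene, had no count in clone19 and 7.95 ± 1.59 CPM in Rec, at least 108-fold higher in Rec. The amino acid transporter Slc7a5 rose to 466 ± 40.8 CPM in Rec, against 208 ± 28.4 CPM in clone19 (log2 fold change 1.16, SE 0.11, edgeR adjusted p = 5.87e-10). Both were chosen after their values were seen.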
